A study of Mus musculus with 629 samples.

Results

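Macrophages and microglia of mice heterozygous for Notch3 were compared by single-cell RNA sequencing of adult brain. The 2 groups were taken from the deposited labels: a cell had to carry the Notch3 genotype Het and the cell type Macrophages or Microglia, which gave 70 macrophages and 58 microglia among 629 labelled cells. All of them lay on 3 of the 6 plates of the series, with 35 macrophages and 15 microglia on plate 056s, 16 and 15 on plate 524s, and 19 and 28 on plate 529s. Both groups were C57BL/6 animals of the reporter line SM22-Cre;Rosa26-stop-tdTomato, in which the smooth muscle promoter of SM22 (Tagln) drives Cre and so turns on the red protein tdTomato. By their labels the macrophages and the microglia therefore shared genotype, strain, age class, tissue and transgenes, and were set apart by the cell type. Whether they differed in anything the labels leave out is not known. The labels gave neither the sorting gate nor the animal of a cell, and none said how the cell types had been assigned. If the types were assigned from these same counts, part of every difference below follows from that assignment, so the differences are given as descriptions with no test.

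Microglia are the macrophages of the brain tissue itself. They are held in their resting state by TGF-beta signalling and the zinc finger factor Sall1, and they are known for purinergic receptors that guide their processes. Perivascular macrophages lie along the vessels, outside the brain tissue, and are known for endocytic receptors such as the mannose receptor Mrc1, the hemoglobin receptor Cd163 and the hyaluronan receptor Lyve1. Both belong to one broad family of resident macrophages, share Csf1r and the C1q genes, and need the factor PU.1.

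Counts of the cells of 1 type on 1 plate were summed into a pool and scaled to CPM, which sets every pool to one common total so that pools of different depth can be compared. This gave 6 pools. A difference was the log2 ratio of macrophages over microglia, each as CPM + 1, taken inside each plate, and it is given as the mean ± SD over the 3 plates. The added 1 makes ratios of genes near 0 too small. Since no label named an animal, the plates are not replicates of animals and no p-value was computed. The pools held between 2470852 and 33892157 gene counts, and plate 056s supplied 77.9% of the total. Rn18s, the 18S ribosomal RNA, took 16.4% and 17.2% of the counts in the plate 056s pools and between 53.8% and 56.4% elsewhere, and was left out of the totals. Macrophages had fewer detected genes per cell than microglia on every plate, with medians of 4634 against 5730, 2959.5 against 4710, and 3307 against 5124.5. They also had fewer gene counts per cell, with medians of 891311 against 1002717, 142690 against 220374, and 109021 against 203261. Whether depth accounts for the difference in detected genes was not tested. The targeted gene Notch3 had 0 counts in 5 pools and 1 count in the microglia of plate 529s, where 0 counts allows between 0.0885 and 1.21 CPM depending on the pool, so its level does not check the genotype labels. Both pools of plate 529s had Xist, at 825 and 1377 CPM, and no Ddx3y count, whereas the other 4 pools had Ddx3y at 53.0 to 127 CPM. Each plate thus matched itself across the 2 cell types in these sex-linked genes, and plate and sex cannot be told apart.

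The defining markers separated the labelled types in both directions, but unequally. The homeostatic microglia markers, 16 of 16, had higher levels in microglia on all 3 plates, with a median log2 ratio of -4.65, and 14 of them were at least 2-fold higher on every plate. Of the 16 perivascular macrophage markers, 15 were higher in macrophages on all 3 plates, with a median of 1.52. Among all 6435 measured genes, 17.9% were higher in macrophages on all plates and 21.8% were higher in microglia. A gene counted as measured when its mean reached 20 CPM in one type and at least 25% of the cells of that type had a count. The labels Macrophages and Microglia thus had the direction that their markers give, although the macrophage markers were also present in the microglia pools. Summed over the list, they stood there at 50.4% of the macrophage level on plate 056s, 34.8% on plate 524s and 29.8% on plate 529s. The microglia markers summed in the macrophages to 16.4%, 15.2% and 13.2% of the microglia level. No perivascular marker was under 10% of its macrophage level in any microglia pool, whereas 9, 11 and 11 microglia markers were under 10% of their microglia level in the macrophages.

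**Figure D1:**
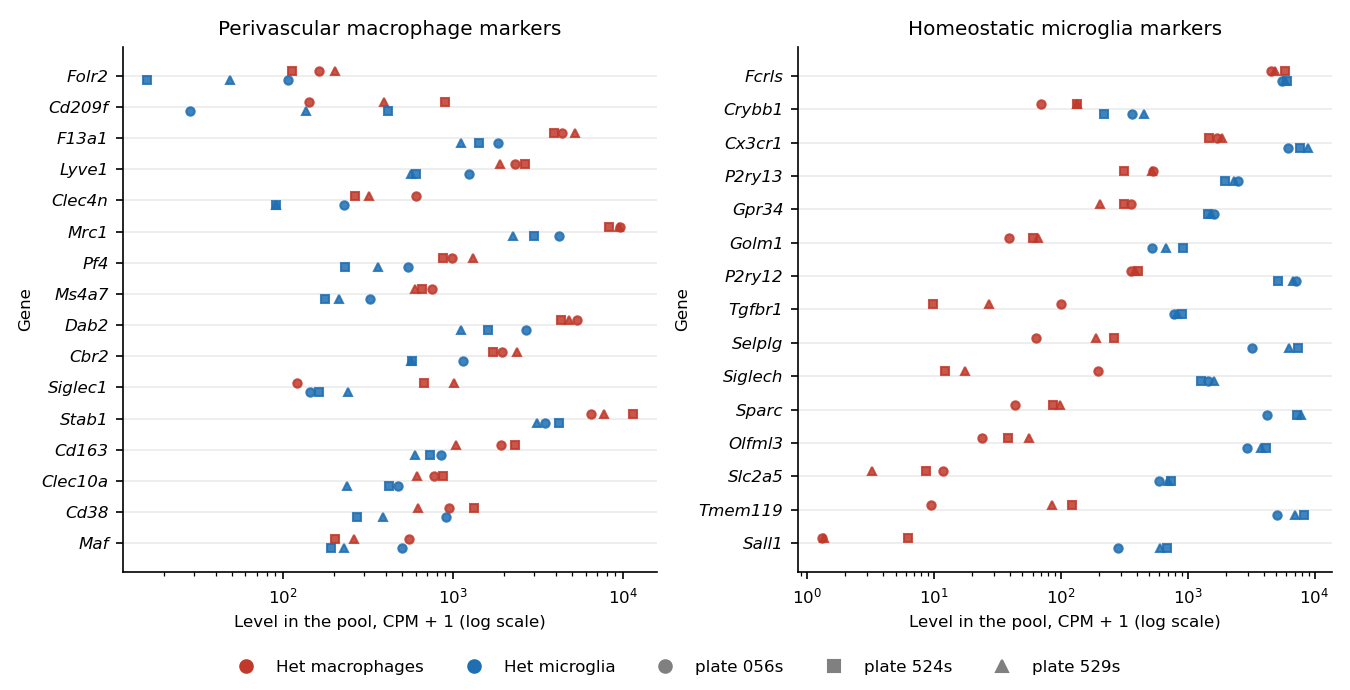
Levels of the 16 perivascular macrophage markers (left) and 15 of the 16 homeostatic microglia markers (right), as CPM + 1 on a log axis; each point is 1 pool, coloured by cell type and shaped by plate. The macrophage markers sit in adjoining ranges in the 2 types, and of the plotted microglia markers only Fcrls and Crybb1 are not at least 2-fold apart on all 3 plates.

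Single cells showed the same overlap. The summed macrophage markers had a median of 38000 CPM per macrophage on plate 056s, 41300 on plate 524s and 37400 on plate 529s. In microglia the medians were 21100, 9770 and 10800 CPM, with single cells between 1290 and 33500 CPM. Of the 58 microglia, 18 (31.0%, exact Clopper-Pearson 95% interval 19.5 to 44.5) reached the sum of the lowest macrophage of their own plate. By the microglia markers the types did not overlap on any plate, since the highest macrophage had 22100 CPM and the lowest microglia 25000 CPM. Whether the macrophage RNA of the microglia pools came from the cells themselves was not tested.

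**Figure D2:**
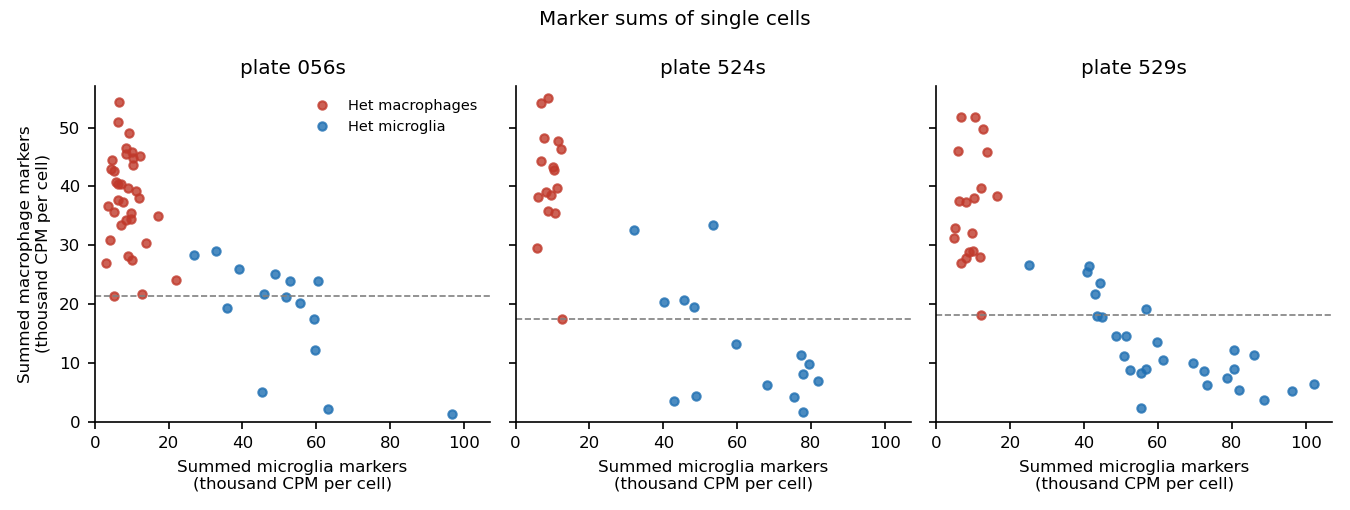
Summed macrophage markers against summed microglia markers, in units of 1000 CPM per cell, for the 70 macrophages and 58 microglia, by plate; the dashed line marks the lowest macrophage of the plate. Microglia spread along the vertical axis, and 7, 5 and 6 of them reach the line on plates 056s, 524s and 529s.

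Marker and lineage genes, 4 in all, are shown with the DNA around their starts, because they stand for both directions of the comparison and each holds a match to the core motif of PU.1, the factor that both cell types need. Pf4 and F13a1 were higher in macrophages, and Havcr2 and Ctss in microglia. Each run covers 250 bases before and 50 bases after the start that RefSeq gives on GRCm38.p6, 5' to 3' on the strand of the gene, with matches to the motifs searched in capitals.
Pf4, chr5:90772185-90772484, plus strand: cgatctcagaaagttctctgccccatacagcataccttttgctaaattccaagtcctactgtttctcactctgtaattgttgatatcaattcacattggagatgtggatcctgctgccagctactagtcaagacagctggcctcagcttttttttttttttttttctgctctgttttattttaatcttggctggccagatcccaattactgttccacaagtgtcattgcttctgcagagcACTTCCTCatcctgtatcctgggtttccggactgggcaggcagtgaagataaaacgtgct
F13a1, chr13:37049164-37049463, minus strand: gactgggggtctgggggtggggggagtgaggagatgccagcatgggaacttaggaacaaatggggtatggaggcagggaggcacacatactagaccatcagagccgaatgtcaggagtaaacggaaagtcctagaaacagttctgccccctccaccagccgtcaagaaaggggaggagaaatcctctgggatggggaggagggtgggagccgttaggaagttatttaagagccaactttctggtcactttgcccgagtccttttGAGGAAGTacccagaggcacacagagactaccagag
Havcr2, chr11:46454681-46454980, plus strand: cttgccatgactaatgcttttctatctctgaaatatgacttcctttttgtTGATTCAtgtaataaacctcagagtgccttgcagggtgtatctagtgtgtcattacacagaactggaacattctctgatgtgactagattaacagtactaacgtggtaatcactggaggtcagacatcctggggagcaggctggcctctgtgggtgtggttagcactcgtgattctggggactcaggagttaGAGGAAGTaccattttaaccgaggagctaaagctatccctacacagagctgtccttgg
Ctss, chr3:95526536-95526835, plus strand: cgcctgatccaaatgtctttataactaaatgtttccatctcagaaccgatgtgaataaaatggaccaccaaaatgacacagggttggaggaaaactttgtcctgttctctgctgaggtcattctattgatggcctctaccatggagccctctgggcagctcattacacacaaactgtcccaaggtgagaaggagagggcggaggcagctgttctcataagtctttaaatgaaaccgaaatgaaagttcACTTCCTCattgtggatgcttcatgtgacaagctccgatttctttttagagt
The PU.1 match lay 10 bases before the start in Pf4, 8 before in Havcr2, 2 before in Ctss and 14 after in F13a1, and the other capitals in Havcr2 are an AP-1 match 200 bases before the start. A second start listed for F13a1 held no match. These genes were chosen after their values and sequences had been seen.

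The letters searched, on both strands, were GAGGAAGT for PU.1, TGCTGAC for MAF, TGANTCA for AP-1 and GTCTAGAC for SMAD, none of which contains another. PU.1 letters were found in 3.20% of all 32851 promoters and in 3.55% of those of measured genes. Of the promoters of genes at least 2-fold higher in microglia, 28 of 377 (7.43%) held them, against 5 of 103 (4.85%) for the macrophage genes. The MAF letters were in 5.83% of the macrophage set, 5.04% of the microglia set and 3.39% of the measured set. AP-1 letters stood in 5.83%, 5.57% and 4.93%, and SMAD letters in 0 macrophage promoters, 1 microglia promoter and 0.193% of the measured set. These shares were not tested, and a match is a run of letters, not a bound site.

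Across the transcriptome, 2550 of 6435 measured genes (39.6%) had the same direction on all 3 plates, 1150 of them higher in macrophages and 1400 in microglia. At least 2-fold on every plate were 115 macrophage genes (1.79%) and 379 microglia genes (5.89%). The macrophage side also stopped at smaller ratios, because 16 macrophage genes against 169 microglia genes were at least 4-fold apart on every plate, and 0 against 68 were at least 16-fold apart. All 3 macrophage pools lay above all 3 microglia pools for 555 genes (8.62%), and the reverse held for 809 (12.6%). Over all measured genes the median log2 ratio was -0.105, and the SD of a gene's 3 plate values had a median of 0.838. Just inside the 2-fold limit lay Etv1 for macrophages, whose smallest plate value was 1.005, and Elac1 for microglia at -1.003, and just outside lay Dab2 at 0.9994 and Pycard at -1.0.

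What the 2 sets looked like in the other cell type differed as well. The 115 macrophage genes had a median level of 117 CPM in macrophages against 32.4 CPM in microglia, and 6 of them were under 5 CPM in microglia. The 379 microglia genes had a median of 73.7 CPM in microglia and 8.59 CPM in macrophages, where 139 were under 5 CPM. Passing the limits on level and detection in one type was enough to be measured, so a gene could be measured through the type in which it was higher alone. Of the measured genes, 4639 passed in both types, 1481 in microglia alone and 315 in macrophages alone. Among genes that passed in both, 77 were at least 2-fold higher in macrophages and 107 in microglia, and 272 of the 379 microglia genes had passed in microglia alone. With every cell thinned to 65998 counts, which left out 13 shallower cells, 100 macrophage and 358 microglia genes passed the 2-fold rule. Of these, 62 were among the 115 macrophage genes and 296 among the 379 microglia genes. By the median of the cells' own CPM in place of the sum, a measure added after the data were seen, 52 macrophage and 1031 microglia genes passed, with the same limits on level and detection in one type. They were 1.67% and 33.2% of the 3110 genes measured that way, and 25 and 171 of them were among the 115 and the 379.

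**Figure D3:**
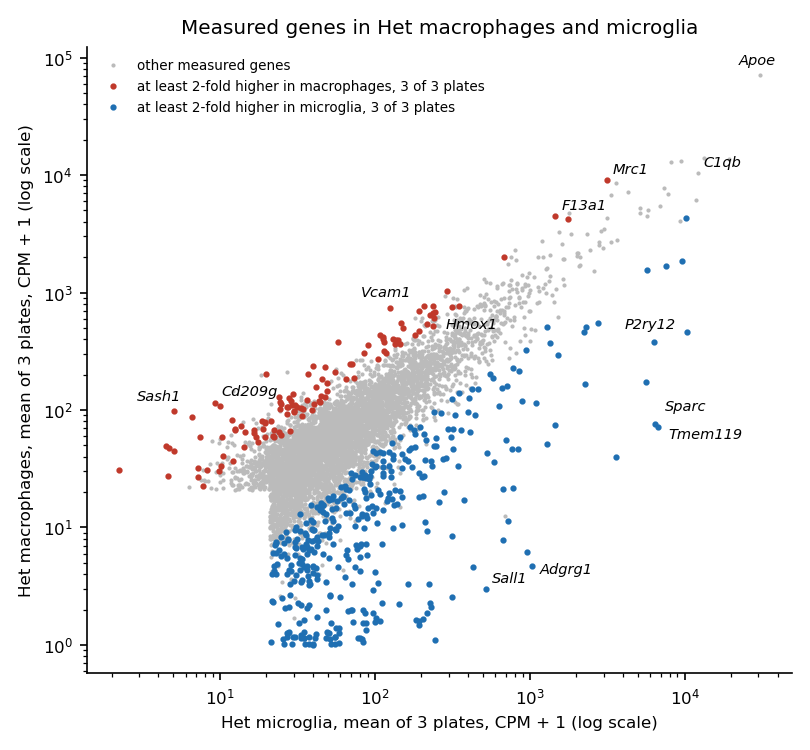
Mean level over 3 plates of each of the 6435 measured genes, Het microglia against Het macrophages, as CPM + 1 on log axes; coloured points are at least 2-fold apart on all 3 plates. The 379 microglia genes reach far below the diagonal, down to macrophage levels near 0, while the 115 macrophage genes lie closer to it.

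Sall1, Adgrg1 and Tmem119 were among the microglia genes with the largest smallest-plate ratios. Sall1, the zinc finger factor of microglial identity, was at 283, 681 and 605 CPM in the microglia of plates 056s, 524s and 529s. In the macrophages it was at 0.325 (exact Poisson 95% interval 0.162 to 0.581), 5.26 (2.80 to 9.00) and 0.372 (0.00942 to 2.07) CPM. Its log2 ratio was -7.76 ± 1.01, with counts in 98.3% of microglia and 18.6% of macrophages. The intervals cover counting error only, and reads copied by PCR make them too narrow. Adgrg1, an adhesion receptor also called GPR56, had 758, 1102 and 1227 CPM in microglia against 2.48, 6.48 and 2.23 CPM in macrophages, a log2 ratio of -7.85 ± 0.69. Every one of the 58 microglia had an Adgrg1 count. The microglial membrane protein Tmem119 stood at 5058, 8221 and 7063 CPM against 8.56, 121 and 84.1 CPM, and its ratio of -7.17 ± 1.64 was widest on plate 056s. In the macrophage pools of plates 524s and 529s, 1 cell held 49.2% and 48.7% of the Tmem119 counts.

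Sparc, a matrix-binding secreted protein, was at 4248, 7265 and 7818 CPM in microglia and at 43.0, 85.4 and 97.1 CPM in macrophages, so its ratio of -6.43 ± 0.14 was nearly the same on each plate. Olfml3, another secreted protein, had a ratio of -6.59 ± 0.45. The inhibitory receptor Havcr2 (TIM-3), whose promoter is printed above, stood at 196, 180 and 204 CPM in microglia, and in macrophages at 0.295 and 1.49 CPM on plates 056s and 529s with 0 counts on plate 524s. The tetraspanin Cd9 had a ratio of -6.95 ± 0.58 and the sialomucin Cd34, better known from stem cells and endothelium, one of -6.92 ± 0.12. These were 8 of the 15 genes whose smallest plate ratio was largest. The other 7 were the tetraspan protein Lhfpl2, the GTPase-activating protein Arhgap27, the surface protein Ecscr, Lrrc3, the protease inhibitor Spint1, the potassium channel Kcnd1 and the collagen Col27a1, with mean ratios from -6.17 ± 0.16 for Kcnd1 to -7.09 ± 0.26 for Lhfpl2. Col27a1 had 5 counts in the macrophages of plate 056s and 0 in both other macrophage pools. None of these 15 genes had overlapping pools, against 12.6% of all measured genes with every microglia pool above every macrophage pool. Since the 15 were chosen by a large ratio on every plate, this follows largely from the choice. Exons of Cd34, Arhgap27, Cd9 and Ecscr overlap another gene, so some of their reads may belong to the neighbour.

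The remaining identity markers of microglia had smaller ratios on their smallest plate. The purinergic receptor P2ry12 was at 7092, 5131 and 6819 CPM in microglia and at 355, 405 and 382 CPM in macrophages, a log2 ratio of -4.04 ± 0.34. The fructose transporter Slc2a5 had a ratio of -6.61 ± 1.06 and the selectin ligand Selplg one of -5.18 ± 0.45. The fractalkine receptor Cx3cr1 had -2.16 ± 0.27, and Gpr34, P2ry13 and Golm1 had -2.43 ± 0.41, -2.33 ± 0.26 and -3.67 ± 0.30. Siglech, a sialic acid receptor, varied most by plate among the 16. It stood at 194 CPM in the macrophages of plate 056s and at 11.3 and 16.7 CPM in those of the other plates, against 1267 to 1619 CPM in microglia. The TGF-beta receptor Tgfbr1 followed the same order, with 100 CPM in the macrophages of plate 056s and 8.90 and 26.4 CPM elsewhere, against 786 to 908 CPM in microglia. Crybb1 was lower in macrophages on all plates (-1.61 ± 0.84), by less than 2-fold on plate 524s. The Fc receptor-like gene Fcrls was near level, with 4565, 5816 and 4844 CPM in macrophages against 5594, 6113 and 5811 CPM in microglia, a ratio of -0.21 ± 0.12. Its pools overlapped.

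The macrophage genes with the largest ratios rested on fewer cells. Pgap6, a phospholipase that acts on GPI-anchored proteins, was the best filled, at 186, 194 and 223 CPM in macrophages and 3.23, 20.3 and 32.7 CPM in microglia, a log2 ratio of 3.80 ± 1.47 with counts in 72.9% of macrophages and 43.1% of microglia. Nlrc4, an inflammasome sensor, was at 85.2, 82.2 and 156 CPM against 12.4, 9.83 and 4.79 CPM (3.46 ± 1.13). The scaffold protein Sash1 had the largest smallest-plate ratio, with 39.9, 160 and 89.3 CPM in macrophages against 2.73, 3.39 and 6.11 CPM in microglia (4.11 ± 0.95). However, 1 of 16 cells held 68.9% of the Sash1 counts of the plate 524s macrophages, and 40.0% of macrophages had a count. The C-type lectin Cd209g had 45.0, 136 and 162 CPM against 0, 16.6 and 8.42 CPM. On each plate 1 cell held between 65.8% and 67.9% of the macrophage counts. Reads of the Cd209 genes can be shared between near-identical copies.

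Vcam1, the adhesion ligand of the integrin alpha4 beta1, was higher in macrophages on all plates but at different levels by plate. It stood at 131, 1175 and 919 CPM in macrophages and at 0.372, 162 and 209 CPM in microglia, so the pools overlapped and the ratio of 3.85 ± 2.39 had the largest SD of the 15 macrophage genes. Shares of cells with a Vcam1 count were 61.4% in macrophages and 56.9% in microglia. A summed level cannot tell fewer expressing cells from less RNA per cell. The secreted phospholipase Pla2g2d had 2.66 ± 0.93 and the actin-binding Afap1l1 2.71 ± 0.62. The lamin gene Lmna (3.15 ± 0.20), the Arf exchange factor Iqsec1 (3.91 ± 0.97), the gamma-secretase subunit Aph1b (3.59 ± 0.88), the reductase Zadh2 (3.68 ± 0.67), the netrin receptor Neo1 (3.63 ± 1.46), the histone acetyltransferase Kat8 (2.49 ± 0.41) and Gvin3, of the very large inducible GTPases (2.36 ± 0.26), were seen in 25.7% to 40.0% of macrophages. In microglia these genes were seen in 8.62% to 36.2% of cells. Kat8 was seen in more microglia (36.2%) than macrophages (27.1%). Zadh2 (27.6% of microglia, 28.6% of macrophages) and Gvin3 (32.8% and 34.3%) were near level. The Gvin3 pools overlapped. Its level in the plate 524s macrophages, 6.88 CPM, was below that of the microglia of plates 056s (8.82 CPM) and 529s (18.6 CPM). One cell held 97.4% of the Zadh2 and 96.4% of the Lmna counts of the plate 524s macrophages, and Neo1 was counted there in 1 cell. Gfap, the astrocyte filament, was also among the 15 (2.70 ± 0.52). On each plate 1 cell held most of its macrophage counts, with 98.2%, 63.8% and 72.9% on plates 056s, 524s and 529s. A Gfap count was seen in 41.4% of macrophages and 37.9% of microglia.

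The perivascular markers had smaller ratios than the leading macrophage genes, and most were counted in more macrophages. The least filled were Cd209f, in 58.6% of macrophages and 63.8% of microglia, and Siglec1, in 72.9% and 79.3%. Mrc1 was at 9593, 8273 and 9440 CPM in macrophages and at 4181, 2969 and 2254 CPM in microglia (1.58 ± 0.44), with a count in every cell of both types. F13a1, the transglutaminase subunit of clotting factor XIII, had 4375, 3912 and 5180 CPM against 1829, 1424 and 1114 CPM (1.64 ± 0.51). Pf4, the platelet factor chemokine, had 985, 874 and 1301 CPM against 538, 229 and 360 CPM (1.55 ± 0.59). In all 3 the pools were apart. Of the 16 markers, 5 were at least 2-fold on every plate, namely Mrc1, F13a1, Ms4a7 (1.54 ± 0.34), the lectin Clec4n (1.59 ± 0.20) and the lectin Cd209f (1.66 ± 0.63, pools overlapping). Under 2-fold on 1 plate were Pf4, Cd163 (1.21 ± 0.44), Lyve1 (1.60 ± 0.62), Cbr2 (1.46 ± 0.67), the scavenger receptor Stab1 (1.21 ± 0.28), the folate receptor Folr2 (1.83 ± 1.12), the endocytic adaptor Dab2 (1.51 ± 0.56) and the lectin Clec10a (1.03 ± 0.34). Cd38 (1.02 ± 1.15) reached 2-fold on plate 524s alone, and the transcription factor Maf, at 0.14 ± 0.06, was near level. The sialic acid receptor Siglec1 had mixed signs, at 119 against 143 CPM on plate 056s and 669 against 161 and 1015 against 238 CPM on the others. Among all 101 named genes, 32 share exon sequence with another gene, among them F13a1, Stab1, Folr2, Dab2, Maf, P2ry12, Cx3cr1, Sash1, Iqsec1, Kat8, Vcam1 and Afap1l1. On plate 056s the median ratio of the perivascular list was 0.90, against 1.56 and 1.78 on plates 524s and 529s, and the microglia of plate 056s also had the highest macrophage marker sum.

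**Figure D4:**
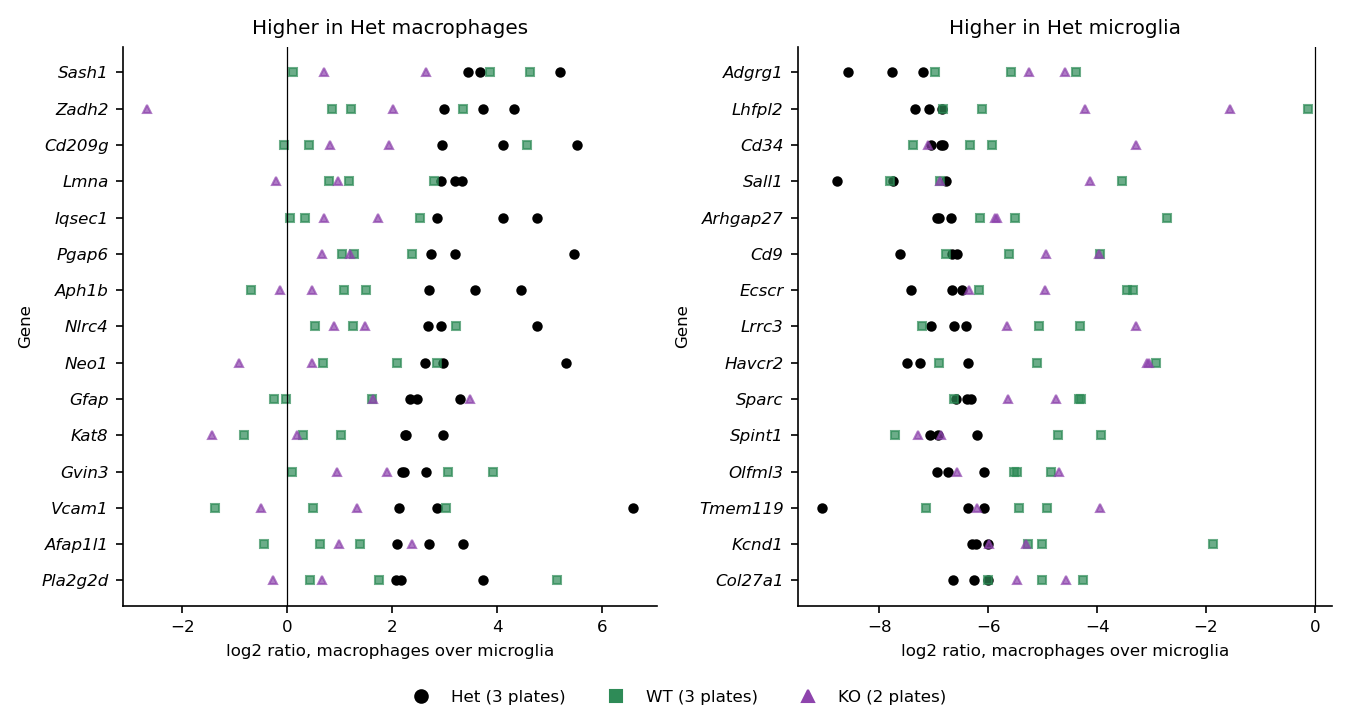
log2 ratio of macrophages over microglia for the 15 leading genes of each direction in Het cells (3 plates) and, for comparison, in WT (3 plates) and KO cells (2 plates). The microglia genes lie left of 0 in all 8 plate pairs, and the macrophage genes come near or cross 0 in several of them.

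Gene lists, drawn up with earlier results of these cells known, leaned to different sides, and 17 of the 28 lists with a median lay above 0. Of the 452 genes on the lists 275 were measured, and the counts below cover those. They are to be read beside all measured genes, of which 17.9% were higher in macrophages and 21.8% in microglia on all plates. No list was tested against these shares, and small lists near them show no lean of their own. Members named beyond the naming rule are examples chosen after their values were seen. Of 22 measured scavenger and endocytic receptors, 16 were higher in macrophages on all plates and 2 in microglia, with a median of 1.34. The scavenger receptors Msr1 (1.49 ± 0.35) and Cd36 (1.42 ± 0.86) were among the 16. So were Mrc1, Cd163, Lyve1, Stab1, Dab2, Folr2, Clec4n, Clec10a and Cd209f, which are also on the perivascular marker list. The 2 lists are therefore not separate results, and several other lists also share members with the marker lists. The exceptions were the lipoprotein receptor Lrp1, at 140, 95.9 and 240 CPM in macrophages against 536, 929 and 687 CPM in microglia (-2.23 ± 0.91), and the apoptotic cell receptor Mertk (-0.72 ± 0.34). All 6 measured Ms4a genes, which code for a family of membrane proteins that lie side by side in the genome, had higher levels in macrophages, their median being 1.40. The least filled, Ms4a14, had 105, 49.8 and 18.6 CPM against 5.65, 6.78 and 6.93 CPM.

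Iron and heme genes followed, with 10 of 15 higher in macrophages, 2 in microglia and a median of 0.87. Heme oxygenase Hmox1 was the most even, at 712, 739 and 575 CPM against 253, 261 and 218 CPM, a ratio of 1.46 ± 0.06. The ferroxidase Cp had 1.48 ± 0.67 and the ferritin heavy chain Fth1 0.87 ± 0.26, while the phagosomal metal transporter Slc11a1 was higher in microglia (-0.28 ± 0.21). Among 9 growth factors and their co-receptors, 6 were higher in macrophages (list median 1.06). Bmp2 was at 40.2, 144 and 56.9 CPM in macrophages and 10.7, 10.2 and 12.2 CPM in microglia, although 27.1% of macrophages had a count. Tgfa went the other way (-2.998 ± 1.75), as did Pdgfb (-3.39 ± 1.61). Igf1 (1.45 ± 0.71) and Gas6 (1.10 ± 0.34), a ligand of Mertk, were higher in macrophages.

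More chemokines were higher in macrophages than in microglia, whereas the clotting genes were split. Of 9 chemokines 5 were higher in macrophages and 1, Ccl6, in microglia, with a median of 0.96. Ccl24, which attracts eosinophils, was at 248, 113 and 115 CPM against 113, 60.0 and 63.4 CPM (0.96 ± 0.14). Ccl2 and Ccl7 differed by plate, with SDs of 2.30 and 2.15 around means of 2.48 and 2.40. In the clotting list 4 of 9 were higher in macrophages and 3 in microglia. Those 3 were F11r, a junctional adhesion molecule, at 615, 1192 and 1077 CPM in microglia and 8.73, 5.26 and 1.49 CPM in macrophages (-7.44 ± 1.39), the protease inhibitor Serpine2 (-5.97 ± 0.23), and Pros1 (-0.61 ± 0.38).

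Of 11 complement genes 4 were higher in macrophages and 3 in microglia, with a median of 0.43 that turned to -0.0987 by the median of cells. C1qb (-0.23 ± 0.05) and C1qc (-0.34 ± 0.10), subunits of the starter of the classical pathway, were a little higher in microglia on each plate. Properdin, Cfp, at 747, 1329 and 1195 CPM against 461, 385 and 332 CPM (1.44 ± 0.65), and the receptors C3ar1 (0.94 ± 0.88) and C5ar1 (0.83 ± 0.34) were higher in macrophages. The integrin subunit Itgam, a chain of complement receptor 3, was higher in microglia, at 329, 351 and 305 CPM against 97.4, 78.5 and 91.9 CPM (-1.87 ± 0.24). Of 10 integrins 5 were higher in microglia and 1 in macrophages, with a median of -0.997. Itgb3 had counts in 1.43% of macrophages and 32.8% of microglia, Itgb5 had a ratio of -2.25 ± 0.99, and Itga4, whose product binds Vcam1, was the macrophage exception (1.13 ± 0.24).

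Transcription factors leaned to microglia, whereas receptor lists were split. Of 14 measured transcription factors 9 were higher in microglia and 1, Maf, in macrophages, with a median of -1.19. Sall3, a relative of Sall1, was at 68.9, 104 and 58.1 CPM in microglia and at 0.0590 and 0.405 CPM in the macrophages of plates 056s and 524s, with 0 counts on plate 529s. Mef2a, a factor of muscle and myeloid cells, had -1.48 ± 0.51. Spi1, the gene of PU.1, had mixed signs around -0.09 ± 0.51. In the TGF-beta list 4 of 11 were higher in microglia and 3 in macrophages, and the median of -1.01 became 0.437 with a floor of 100 CPM. Smad3, which carries the signal of Tgfbr1, was at 68.8, 27.1 and 141 CPM against 15.2, 0 and 2.60 CPM. The matrix target Tgfbi went to macrophages (1.49 ± 0.25). Of 19 cytokine receptors 9 were higher in microglia and 7 in macrophages. Their median of 0.26 became -0.0555 without plate 524s and -0.526 by the median of cells. Csf1r itself, which both types need, had -0.48 ± 0.17, and Csf2rb 1.47 ± 1.13.

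The purinergic list split by receptor, with P2ry12, P2ry13, Entpd1 (-0.32 ± 0.23) and the adenosine receptor Adora3 (-3.85 ± 1.09) higher in microglia and P2rx4 (1.22 ± 0.41) and P2ry6 (0.49 ± 0.40) in macrophages. Its median of -0.32 became 0.0614 without the limits on level and detection. Among 12 genes of the Notch pathway 6 were higher in microglia and 1 in macrophages. That one was Rbpj, the DNA-binding partner of all Notch receptors, at 182, 90.7 and 109 CPM against 59.3, 32.2 and 47.9 CPM (1.41 ± 0.22). Numb, an inhibitor of Notch, was at 195, 226 and 275 CPM in microglia against 53.0, 5.26 and 37.9 CPM in macrophages. Notch1 and Notch2 had mixed signs.

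Antigen presentation genes with 1 direction on all plates differed by class, but many members were mixed. Of 13 measured MHC class I and peptide-loading genes 6 were higher in macrophages, none in microglia and 7 were mixed. Their median of 0.27 turned to -0.0164 by the median of cells. H2-D1 had 2551, 2183 and 4729 CPM against 1889, 1624 and 2026 CPM (0.69 ± 0.46). The peptide transporter Tap1 had 70.8, 263 and 434 CPM against 31.2, 199 and 176 CPM, with overlapping pools. Class II genes were low in both types, and 5 of 10 were measured, 3 of them higher in microglia and 2 mixed. Summed over the list, class II overlapped, at 107 to 423 CPM in macrophages and 307 to 584 CPM in microglia. H2-DMa, which loads peptides onto class II, was at 99.1, 157 and 188 CPM in microglia and 11.6, 13.4 and 68.1 CPM in macrophages, and its inhibitor subunit H2-Oa was counted in 1.43% of macrophages and 50.0% of microglia. Exons of Tap1, H2-DMa and H2-Oa overlap neighbours. Of 7 Fc receptor genes 5 were higher in macrophages, among them the inhibitory Fcgr2b at 1678, 2022 and 1938 CPM against 944, 736 and 777 CPM, and 2, Fcrls and Fcrl1, in microglia.

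Lysosomal and lipid genes moved in both directions. Of 22 measured cathepsin and lysosome genes 8 were higher in microglia and 6 in macrophages, with a median of -0.10 beside -0.105 over all measured genes. The protease Ctss, whose promoter is printed above, was at 5733, 5235 and 6174 CPM in microglia against 1953, 1242 and 1441 CPM (-1.91 ± 0.31), and Ctsd had -1.21 ± 0.36, while Ctsb was higher in macrophages (0.49 ± 0.29). Apoe, the main lipid carrier of the brain, was higher in macrophages on all plates (1.24 ± 0.42), as was the cholesterol exporter Abca1 (0.87 ± 0.23). Trem2, a lipid-sensing receptor, went to microglia, at 1188, 1199 and 1650 CPM against 469, 323 and 324 CPM (-1.86 ± 0.50). Disease-associated microglia genes counted 3 in each direction of 10, with Cd9 and Trem2 on the microglia side and Apoe on the other. Of the matrix enzymes, Mmp2 was counted in 2.86% of macrophages and 41.4% of microglia, and Mmp9 had a ratio of 1.10 ± 0.13.

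Interferon response genes were higher in macrophages for 8 of 12 members and in microglia for none, with a median of 1.17 with plate values of 0.595, 1.37 and 1.90. Bst2, an antiviral tether, was at 300.4, 262 and 557 CPM against 151, 96.2 and 193 CPM (1.32 ± 0.29). Ifi204 had 1.77 ± 0.58 with overlapping pools, and 1 cell held 73.8% of its macrophage counts on plate 529s. By the median of the cells' own CPM the list turned to -0.343. Immediate early genes, which rise during dissociation, had 3 of 8 higher in macrophages. Dusp1 was at 152, 245 and 235 CPM against 42.5, 58.3 and 61.7 CPM (1.93 ± 0.12), Ier2 had 0.80 ± 0.15, and Fos was mixed (1.66 ± 2.92). Their median of 0.32 was -0.0369 when each cell's own CPM was averaged and -4.63 by the median cell. In the inflammatory list 4 of 13 were higher in microglia and 1, Il18, in macrophages, beside 21.8% and 17.9% of all measured genes. The cytokine Il1a was at 113, 90.8 and 117 CPM in microglia and at 0.177, 1.21 and 0.372 CPM in macrophages (-6.13 ± 0.66).

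**Figure D5:**
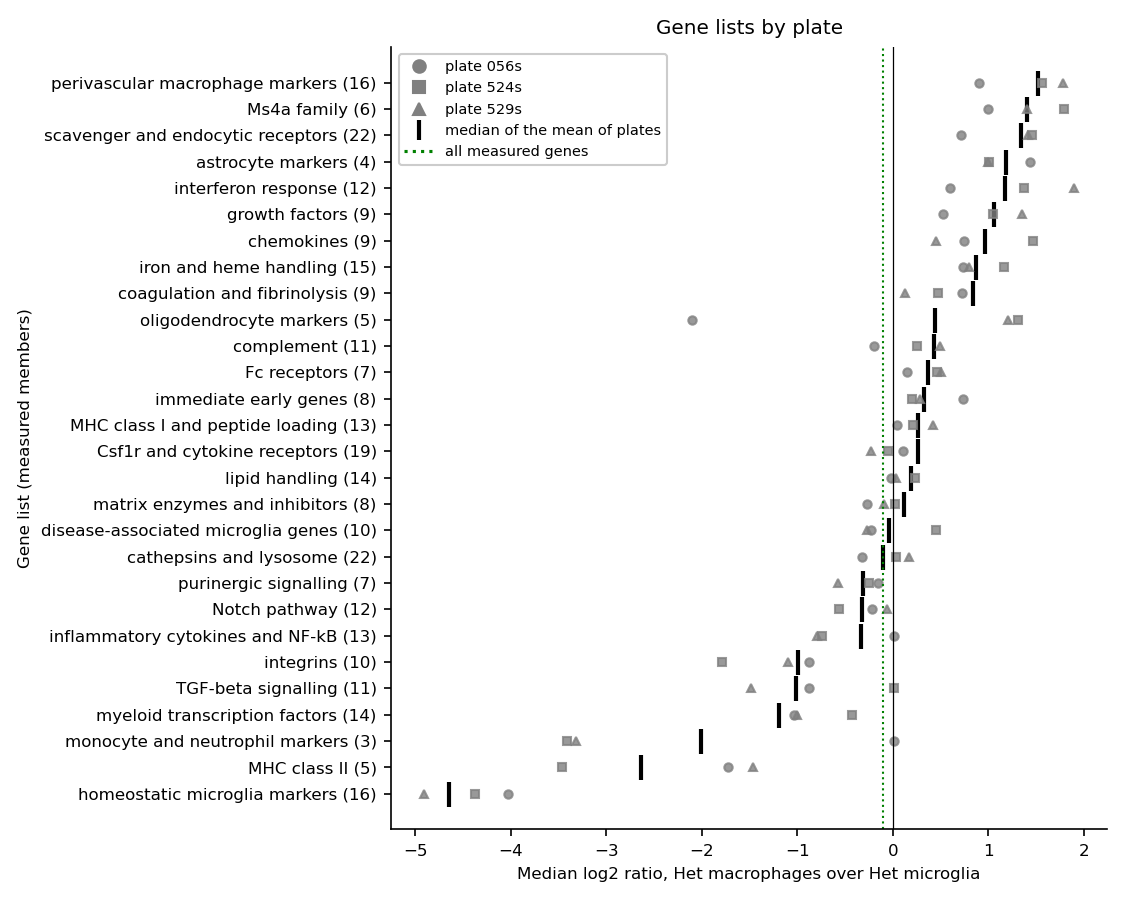
Median log2 ratio of the measured members of 28 gene lists, macrophages over microglia, by plate (grey shapes) and for the mean of the plates (black bar); the dotted line is the median of all measured genes. Macrophage markers, the Ms4a family and scavenger receptors, which share members, lie at the top, and homeostatic microglia markers at -4.65 lie at the bottom.

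Markers of other cell types differed in level. No mural, fibroblast, neuron, lymphocyte or red cell marker was measured, and the 9 mural markers summed to between 0.148 and 1.49 CPM in macrophages and 0.497 and 8.09 CPM in microglia, with Myh11, Kcnj8 and Des at 0 in all 6 pools. Of 8 endothelial markers only Pecam1 was measured, at 32.5, 62.4 and 78.2 CPM in microglia and at most 0.744 CPM in macrophages. The 3 measured monocyte and neutrophil markers had mixed signs, and 1 cell held 98.6% of the Ngp counts in the microglia of plate 524s and 94.4% of the S100a9 counts in those of plate 529s. The dendritic cell factor Zbtb46 was mixed. Oligodendrocyte markers summed to between 603 and 1650 CPM in macrophages and 317 and 648 CPM in microglia. Among them myelin basic protein, Mbp, had counts in 98.6% of macrophages and 98.3% of microglia, at 505, 1321 and 233 CPM against 184, 430 and 116 CPM, and Mag was counted in 2.86% and 29.3%. Astrocyte markers had Gfap and Aldoc higher in macrophages and Slc1a3 (-4.02 ± 1.02) in microglia, and their median of 1.18 became -0.0943 with cells thinned to one depth. The summed astrocyte level ran from 88.5 to 187 CPM in macrophages and from 125 to 339 CPM in microglia. Their part in the results was not tested.

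The same contrast in the other genotypes used cells that were not among the 128 Het cells, in 3 WT plate pairs (plates 059s, 529s and 530s) and 2 KO pairs (060s and 524s), although 2 of those plates also held Het cells. Of the 379 microglia genes, 248 had the same direction in all WT pairs, 313 in all KO pairs and 232 (61.2%) in all 5. Among all measured genes 11.0% were higher in microglia in all 5 pairs. For the 115 macrophage genes the counts were 72, 75 and 54 (47.0%), against 10.3% of all measured genes. At least 2-fold in all 5 were 145 (38.3%) of the microglia genes and 4 (3.48%) of the macrophage genes, where the measured genes gave 2.86% and 0.295%. Of the leading macrophage genes, Sash1, Iqsec1, Pgap6, Nlrc4 and Gvin3 were higher in macrophages in all 5 pairs, Vcam1 in 3, with values from -1.38 to 3.02. All 15 leading microglia genes were higher in microglia in all 5, Sall1 from -3.55 to -7.81. Differences between genotypes were not tested.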

How the data were processed

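Single brain cells had been sorted by FACS and sequenced with SMART-seq2, per the labels' protocols, and aligned with STAR, per the submitters' processing notes. The STAR version, genome build, annotation and counting program are not given in the sources used here. The deposited table held whole-number counts, not normalised, for 53546 gene symbols and 92 ERCC spike-ins in 629 cells. Column names gave each cell its label, and no Het column equalled another. Reads carry no molecular identifiers.

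ERCC and Rn18s were left out. Counts were summed by plate and cell type and scaled to CPM in Python 3.11.15. The libraries were scipy 1.17.1 for intervals, numpy 2.4.6, pandas 2.3.3 and, for figures, matplotlib 3.10.9. Exact Poisson and Clopper-Pearson 95% intervals cover counting error only. With no animal named, no test between types was run, so p-values and adjusted values are not given. Named were, in each direction, the 15 genes with the largest smallest-plate ratio among those at least 2-fold on 3 plates (no predicted, pseudo-, ribosomal protein or mitochondrial genes), both marker lists in full, 2 genes of every other list, Notch3, and the library checks. A few genes that this rule takes are not reported here, and the counts include them. The members and the 35 lists (452 genes) were chosen with earlier results of these data known. Alternatives changed the scaling (TMM from edgeR 4.0.16 or size factors from DESeq2 1.42.0, both under R 4.3.3 and for factors only), pseudocount, floor, fold limit, depth, cells and plates. The summing and calling steps were tested on simulated data. Exon overlaps came from GENCODE M21, in which 50067 symbols were found, and promoters from RefSeq GRCm38.p6.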

Additional observations from a re-analysis of the deposited data

Results flagged for a closer look

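Tap1, the peptide transporter of class I presentation, was higher in macrophages than in microglia on all 3 Het plates, with a mean log2 ratio of 0.95 ± 0.48. On all 3 WT plates it was higher in microglia, with a mean of -0.329. The KO plates gave 0.19 and -0.335. Every Het plate thus went one way and every WT plate the other, and the difference between genotypes was not tested. Tap1 was picked out because of this difference. Plate 529s alone held both Het and WT cells, so genotype and plate can hardly be told apart. By the median of the cells' own CPM the Het ratio of Tap1 was -1.29.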

How the results depend on the processing

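Against 115 macrophage genes at least 2-fold apart on 3 plates, a floor of 100 CPM gave 71, no floor and no detection limit 228, the median of the cells' own CPM 52, a 1.5-fold limit 342 and a 4-fold limit 16. Against 379 microglia genes the same settings gave 141, 700, 1031, 619 and 169. The number of measured genes changed too, to 2062 at the floor of 100 CPM, 23050 with no limits and 3110 by the median of cells. Leaving out a plate gave 256 to 310 macrophage genes and 574 to 763 microglia genes, since fewer plates have to pass. The 2550 genes of 1 direction became 1097 at a floor of 100 CPM, 4362 with no floor, and 3748 to 3892 without a plate. Of 28 lists, 17 had a median above 0, and 10 of the 25 that kept a median did by the median of cells. Among lists with one sign on all plates, the medians that changed sign were MHC class I (-0.0164), interferon response (-0.343) and immediate early genes (-4.63) by the median of cells, immediate early genes (-0.0369) by the mean of cells, purinergic genes (0.0614) with no floor and astrocyte markers (-0.0943) after thinning. A further 6 lists, whose plates had mixed signs, changed sign in at least 1 alternative: complement, TGF-beta, cytokine receptors, matrix enzymes, disease-associated microglia genes and oligodendrocyte markers. Tap1 (-1.29) and Ier2 (-1.49) changed sign by the median of cells. The cause of these changes was not tested. Of 73 named 2-fold genes, 38 stayed at least 2-fold and 45 kept their direction in all 13 alternatives other than a left-out plate. The directions fared unequally. Pgap6, F13a1 and Ms4a7 were the only macrophage genes among the 38, and the rest were microglia genes. Of the leading macrophage genes, only Pgap6 kept its direction in all 13 alternatives. Of the leading microglia genes, all but Kcnd1 did. These counts looked at the ratios alone. A changed floor leaves a ratio as it is and so could fail no gene, and a changed pseudocount cannot turn a direction. The filter of 50000 gene counts, Rn18s included, and 1000 genes left out 0 cells and so tested nothing. Every ratio was taken inside a plate, which pairs the types by plate. No test was run with or without that pairing, because cells could not be assigned to animals.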

Other observations

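On plate 524s, 4 further Het cells carried the cell type label 7, which the labels do not explain. Their gene counts ran from 11173 to 106218. The summed macrophage markers of these cells ran from 3110 to 49400 CPM and their summed microglia markers from 7590 to 52400 CPM. They entered no comparison.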
